A study of Mus musculus with 6 samples.

Results

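Rab genes encode small GTPases that give membranes of the cell their identity, and 44 of the 13254 genes listed for these macrophages have a symbol of the form Rab, a number and at most 1 letter and 1 further digit. All 44 rows with such a symbol were taken, by symbol and not by value, while the role groups and lists used below were drawn up with earlier results of these data known. A further 15 Rab genes of the GENCODE M21 annotation, Rab27b and Rab33a among them, had no row of that symbol in the values used here and were not analysed. The levels of the 44 come from BMDMs, macrophages grown in culture from marrow cells, of mice that lack the miR-130b/301b microRNA cluster (KO, 3 samples) and of wild-type mice (WT, 3 samples). RNA was sequenced from paired ends, and the deposited values are CPM, read counts scaled to a common library size. The labels give no strain, age, sex, stimulus or number of animals used. Whether the 3 samples of a group are 3 animals is not known, so each p-value rests on a spread that may be purely technical. In bulk RNA, fewer cells of a type and less RNA per cell cannot be told apart. Values of single samples are given in the order of replicates 1, 2 and 3. The number of sequenced reads is unknown, so no counting error is given.

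A Rab protein switches between a GDP-bound form held in the cytosol by GDI proteins and a GTP-bound form on a membrane. Guanine nucleotide exchange factors (GEFs) load GTP, GTPase-activating proteins (GAPs) end the active state, and effectors recruited by the active form tether, move or fuse vesicles. In macrophages a phagosome that holds a dead cell or a microbe passes from Rab5 to Rab7 as it matures and fuses with lysosomes, while Rab4 and Rab11 return membrane and receptors to the surface. The series title ties loss of the cluster to efferocytosis, the uptake of dead cells, and the comparison of KO with WT asks how the transcripts of this traffic compare between the genotypes.

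The deletion was visible in the libraries: 2610318N02Rik, the host transcript of the cluster, was listed at 0 in all KO samples, whereas WT had 1.63, 2.43 and 2.07 CPM. The columns summed to between 989223 and 1018258, so a scaling beyond plain CPM was applied. All 8 macrophage markers were listed, with summed levels of 19370 to 20060 CPM in KO and 17760 to 18330 in WT. T and NK cell markers (0 of 5 listed) and mast cell and basophil markers (0 of 4 listed) had no row. Markers of B cells (3 of 4 listed, 5.66 to 6.81 CPM summed), megakaryocytes (1 of 4, up to 0.884 CPM) and dendritic cells (1 of 4, up to 0.531 CPM) were low. The 8 listed of 9 neutrophil and early myeloid markers summed to 176 to 224 CPM in KO and 197 to 217 in WT, with Mpo lower in KO. The 7 stromal markers summed to 6.27 to 39.6 CPM in KO and 58.4 to 66.1 in WT, with Col3a1, Col12a1 and Postn lower in KO.

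The deleted microRNAs miR-130b-3p and miR-301b-3p belong to a family with a common seed, the bases that pair with targets. The mature sequence of miR-130b-3p (RefSeq, GRCm38.p6, chromosome 16, minus strand) is shown because its seed, bases 2 to 8 in capitals, fixes the letters searched for in the Rab transcripts.
miR-130b-3p: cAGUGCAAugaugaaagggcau

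The seed's complement, TTGCACT, was looked for on the transcript strand within each gene's longest 3′ UTR (GENCODE M21, GRCm38). It occurred in 6 of the 43 Rab genes tested (14% against 12% of all tested genes with an annotated 3′ UTR, where the median UTR was 1206 bases against 1949 for Rab genes). The 7 matches are shown 5′ to 3′ with their flanking bases, the match in capitals, since they are the only places in these annotated UTRs with the letters of the seed match.
Rab11b: cctgtagcccTTGCACTgttgcccg
Rab14 match 1: tactccatctTTGCACTgtggcata
Rab14 match 2: agttgctactTTGCACTgggtggtc
Rab34: ccctggacatTTGCACTgacttttt
Rab5a: aatcagtataTTGCACTaattattt
Rab5b: cccctgcagtTTGCACTttaattga
Rab7b: tcgatgtacaTTGCACTgaagtcac
These genes lie on chromosomes 17 (Rab11b and Rab5a), 2 (Rab14), 11 (Rab34), 10 (Rab5b) and 1 (Rab7b). A match is a string of letters and not a shown target site. The 6 genes did not share a direction. Rab34 stood higher in KO (log2 difference 0.21), Rab5a lower (-0.11), and Rab7b (0.04), Rab11b (0.04), Rab5b (0.01) and Rab14 (-0.01) lay closer to 0, with none past the test described next. Rab39, the only Rab gene past it, had no match in its annotated 3′ UTR.

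Most Rab transcripts stood at nearly the same level in both genotypes, and Rab39 alone differed past the test. A minimum of 1 CPM in 3 or more samples left 11556 genes for the fit, among them 43 of the 44 Rab genes. A linear model of log2(CPM + 1) (limma) gave each difference, KO minus WT, and its p-value was adjusted by Benjamini and Hochberg's method (BH) across the 11556 genes, with 0.05 as threshold. By this test 1 Rab gene was higher in KO and 0 were lower, against 1.27% of all tested genes called in either direction, 0.485% called higher and 0.787% called lower. A single call among 43 is near that background share. At an unadjusted p under 0.05 there were 7 Rab genes, where 12.5% of all tested genes were. The samples of KO and WT did not overlap for 10 Rab genes, 5 higher and 5 lower in KO, against 17.7% of all tested genes, 8.55% with KO higher and 9.1% with KO lower.

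The size of the differences was small. The median log2 difference of the 43 tested Rab genes was -0.01, with 21 above 0 and 22 below, and the median of its absolute value was 0.07, against 0.06 for all tested genes. For 41 of the 43 the 95% interval of the difference lay inside a 1.5-fold change in either direction (0.585 on the log2 scale), as it did for 94% of all tested genes. The exceptions were Rab39 and Rab44. Added over the 44 genes, Rab transcripts came to 4955 ± 65.4 CPM in KO against 5046 ± 89.5 in WT (mean ± SD, n = 3 here and below), with overlapping ranges.

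**Figure D1:**
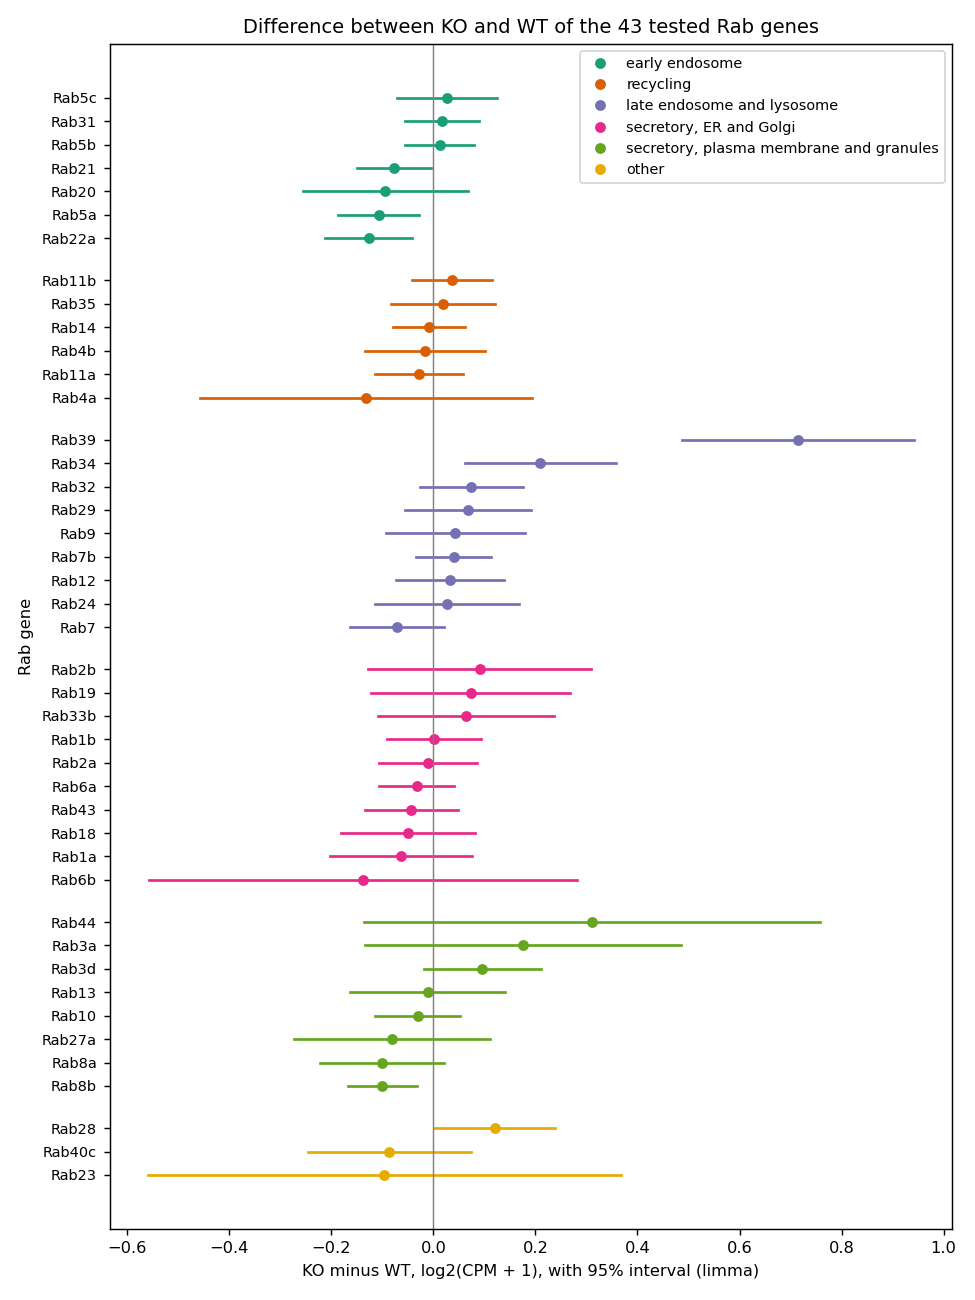
Difference between KO and WT for each of the 43 tested Rab genes (x axis, log2(CPM + 1), KO minus WT; line, 95% interval from limma), grouped and coloured by role. The point of Rab39 lies at 0.71 with its interval from 0.49 to 0.94, while the other points lie between -0.14 and 0.31.

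Among the late endosome and lysosome Rabs, Rab39 was higher in KO, by a ratio of 1.91. Rab39 (ENSMUSG00000055069.4, the mouse counterpart of human RAB39A, which in human cells acts on phagosome acidification and binds caspase-1) stood at 4.48, 4.33 and 4.56 CPM in the 3 KO samples, against 2.64, 2.07 and 2.28 CPM in the 3 WT samples. The lowest KO sample was above the highest WT sample. The mean was 4.45 ± 0.119 CPM in KO against 2.33 ± 0.285 in WT, and the log2 difference was 0.71 (SE 0.0995, 95% interval 0.49 to 0.94, limma, BH-adjusted p = 0.0137). Exact permutation of the 6 samples (two-sided) returned p = 0.1, which is the lower limit for groups of 3. The call was lost without KO replicate 1 (limma, BH-adjusted p = 0.0717), WT replicate 2 (0.0681) or WT replicate 3 (0.0668), while the log2 difference remained between 0.66 and 0.78 whichever sample was left out. With its low level the value also depends on the pseudocount: the log2 difference was 0.37 with a pseudocount of 5 and 0.91 with 0.1, and both passed the test (limma, BH-adjusted p = 0.00995 and 0.0166). Stromal markers were lower and macrophage markers summed higher in the KO samples, as given above, and their part in this difference was not tested.

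Rab39 lies on chromosome 9, and no gene next to it passed the test. None of the 20 nearest tested genes, 10 on either side in GENCODE M21 order, passed the test, and their log2 differences ran from -0.38 (Layn) to 0.13 (Cib2). The adjacent genes were Cul5, a ubiquitin ligase scaffold, at 42.8 ± 1.65 CPM in KO against 42.7 ± 1.24 in WT, and Dmxl2, a regulator of the vacuolar proton pump, at 24 ± 3.08 CPM in KO against 28.3 ± 1.43 in WT (log2 difference -0.23, limma, BH-adjusted p = 0.329). The KO samples of Dmxl2 all lay below its WT samples. The nearest called gene on the chromosome was Ppp2r1b, 12 tested genes away. No exon of another listed gene overlapped those of Rab39 in the annotation.

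**Figure D2:**
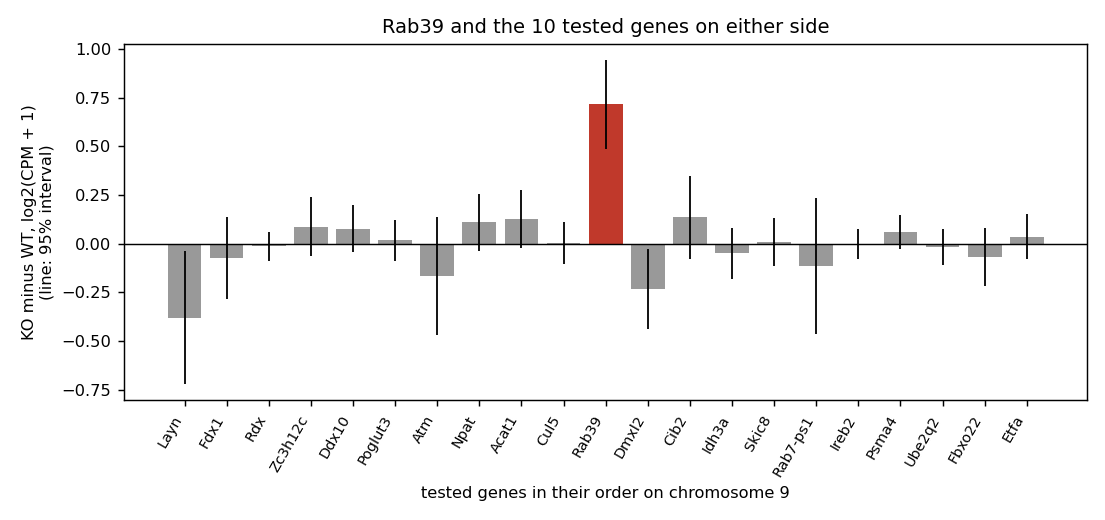
Difference between KO and WT (y axis, log2(CPM + 1), KO minus WT, with the 95% interval as a line) of Rab39 and the 10 tested genes on either side of it on chromosome 9, in their order. Rab39 reaches 0.71, and the other bars lie between -0.38 and 0.13.

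The promoter window of Rab39 is shown because it was the Rab gene whose transcript level differed. It spans 250 bases before and 50 after the start of transcription, whose base is in capitals (RefSeq, GRCm38.p6, chr9:53706183-53706482, minus strand).
Rab39 promoter: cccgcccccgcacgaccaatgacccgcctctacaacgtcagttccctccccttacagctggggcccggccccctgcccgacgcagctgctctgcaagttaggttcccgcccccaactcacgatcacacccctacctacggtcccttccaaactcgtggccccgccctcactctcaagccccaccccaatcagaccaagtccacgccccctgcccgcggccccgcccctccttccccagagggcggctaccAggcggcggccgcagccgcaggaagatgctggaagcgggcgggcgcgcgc
It holds no CACGTG, the core that TFEB and related regulators of lysosomal genes bind and that reads the same on both strands. Of the 38 tested Rab genes with a promoter in the table, 6 held CACGTG (15.8%, against 12.2% of all tested genes). They were Rab5a, Rab20 and Rab21 of the early endosome, Rab24, Rab27a and Rab23. The absence of these letters in a window says nothing about the factor.

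No other late endosome and lysosome Rab passed the test. With Rab39 included, 8 of the 9 tested had a positive difference, and the median was 0.04. Over all tested genes, 5767 of 11556 had a positive difference. For 4 of the 9, Rab39 among them, all KO samples lay above all WT samples, against 8.55% of all tested genes. The role groups were drawn up with earlier results known, so these counts are no test of the role. Rab34, which positions lysosomes and acts on macropinosomes and phagosomes, stood at 14.2, 13.6 and 13.5 CPM in the 3 KO samples, against 11.1, 12 and 12.2 CPM in the 3 WT samples. All 3 KO samples were higher (log2 difference 0.21, 95% interval 0.06 to 0.36, limma, BH-adjusted p = 0.233). Rab32, a Rab of lysosome-related organelles, stood at 39.2, 39.1 and 40.4 CPM in the 3 KO samples, against 38.4, 36.3 and 38 CPM in the 3 WT samples, with all KO samples above the WT samples (log2 difference 0.07, 95% interval -0.03 to 0.17, limma, BH-adjusted p = 0.541). Rab29, a partner of the kinase LRRK2 at stressed lysosomes, likewise did not overlap between the groups, at 20.2 ± 0.786 CPM in KO against 19.2 ± 0.259 in WT (log2 difference 0.07, 95% interval -0.06 to 0.19, limma, BH-adjusted p = 0.669).

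Rab7, the Rab of late endosomes and of their fusion with lysosomes, was the one member of this role below 0. It stood at 608, 609 and 597 CPM in the 3 KO samples, against 600, 650 and 659 CPM in the 3 WT samples. WT replicates 2 and 3 were the highest, and WT replicate 1 lay among the KO samples (log2 difference -0.07, 95% interval -0.16 to 0.02, limma, BH-adjusted p = 0.516). Rab7b, which directs traffic from endosomes to the Golgi, stood at 470 ± 6.25 CPM in KO against 457 ± 11 in WT (log2 difference 0.04, 95% interval -0.03 to 0.11, limma, BH-adjusted p = 0.672). The pseudogene Rab7-ps1, which could share reads with Rab7, was listed at 1.18 CPM in KO against 1.34 in WT. Rab9, which returns mannose 6-phosphate receptors to the Golgi, Rab12, a regulator of degradation of recycling receptors, and Rab24, a Rab of autophagy, had log2 differences between 0.03 and 0.04. The exons of Rab24 are shared over 62.4% of their length with Prelid1 on the opposite strand, so without strand information its value of 16.4 ± 0.855 CPM in KO against 16.1 ± 0.501 in WT cannot be told apart from reads of that gene. Rab38, a Rab of lysosome-related organelles in pigment cells, lay under the filter on low values, between 0.646 and 0.823 CPM over the 6 samples, and was not tested.

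None of the 7 early endosome Rabs passed the test, and for 3 of them every KO sample lay below every WT sample. Rab5a, which drives fusion of early endosomes and young phagosomes, stood at 88.4, 86.4 and 85.6 CPM in the 3 KO samples, against 93.2, 95.2 and 92.4 CPM in the 3 WT samples. The KO samples were all below the WT samples (log2 difference -0.11, 95% interval -0.19 to -0.03, limma, BH-adjusted p = 0.246). Rab22a, which sorts cargo from early endosomes back to the surface, stood at 79.5, 84.5 and 83.6 CPM in the 3 KO samples, against 90, 91.2 and 89.4 CPM in the 3 WT samples, again with no overlap (log2 difference -0.13, 95% interval -0.21 to -0.04, limma, BH-adjusted p = 0.208). Rab21, an integrin-carrying Rab named here after its values were seen, stood at 128 ± 1.88 CPM in KO against 135 ± 1 in WT and did not overlap either (log2 difference -0.08, 95% interval -0.15 to -0.01, limma, BH-adjusted p = 0.36). Over all tested genes, 9.1% were lower in KO without overlap, 17.7% did not overlap in either direction and 12.5% had an unadjusted p under 0.05.

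The more abundant early endosome members lay near 0. Rab5c, a paralog of Rab5a, stood at 335 ± 17.4 CPM in KO against 328 ± 7.79 in WT (log2 difference 0.03, 95% interval -0.07 to 0.12, limma, BH-adjusted p = 0.856). Rab5b, the other paralog, stood at 200 ± 2.48 CPM in KO against 198 ± 1.4 in WT (log2 difference 0.01, 95% interval -0.06 to 0.08, limma, BH-adjusted p = 0.911). Rab31, which links the Golgi with endosomes, stood at 287 ± 1.33 CPM in KO against 283 ± 7.61 in WT (log2 difference 0.02, 95% interval -0.06 to 0.09, limma, BH-adjusted p = 0.881). Rab20, an interferon-inducible Rab of maturing phagosomes, was lower in abundance, at 12.5, 12.8 and 11.2 CPM in the 3 KO samples, against 13.5, 12.5 and 13.1 CPM in the 3 WT samples, and the groups overlapped (log2 difference -0.09, 95% interval -0.26 to 0.07, limma, BH-adjusted p = 0.643). Part of its exons, 25.6%, lies opposite E230013L22Rik, which was listed at no more than 0.889 CPM. Added together, the early endosome Rabs made up 1130 ± 16.3 CPM in KO and 1142 ± 15.7 in WT.

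**Figure D3:**
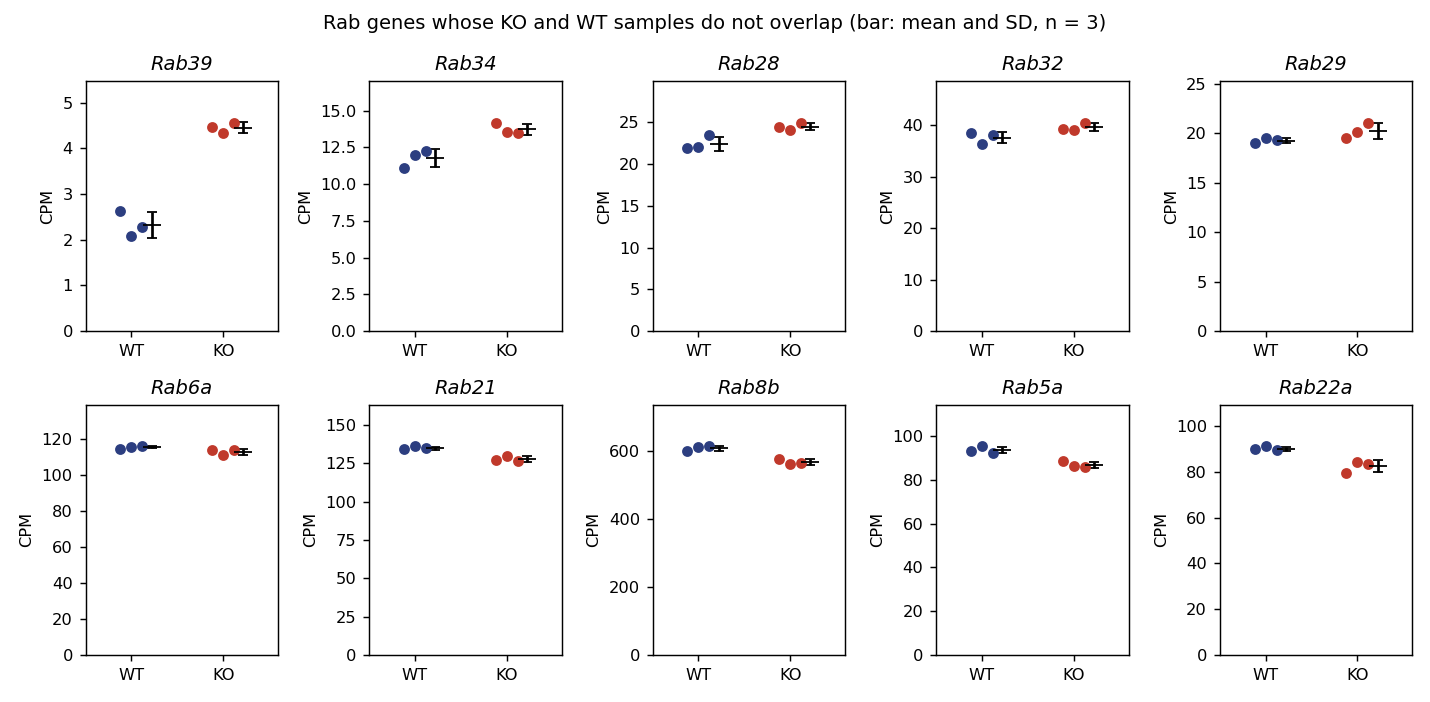
CPM (y axis, from 0) of the 10 tested Rab genes whose KO and WT samples do not overlap, 1 point per sample, with mean and SD (n = 3) beside the points. Rab39 runs from 2.07 to 2.64 CPM in WT and from 4.33 to 4.56 in KO, and the groups of the other 9 genes lie close together on an axis that starts at 0.

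Recycling Rabs lay close to 0: none of the 6 tested passed the test, had an unadjusted p under 0.05 or had groups that did not overlap. Of all tested genes, 1.27%, 12.5% and 17.7% did so, and none among 6 is near those shares. Rab11a, the Rab of the recycling endosome, stood at 108, 112 and 106 CPM in the 3 KO samples, against 111, 113 and 108 CPM in the 3 WT samples (log2 difference -0.03, 95% interval -0.11 to 0.06, limma, BH-adjusted p = 0.814). Its paralog Rab11b stood at 135 ± 0.952 CPM in KO against 132 ± 3.64 in WT (log2 difference 0.04, 95% interval -0.04 to 0.11, limma, BH-adjusted p = 0.728), and an antisense gene, Rab11bos1, shares 5.37% of its exons and was listed at 1.27 CPM in KO against 0.834 in WT. Rab14, which moves cargo between early endosomes and the Golgi and delays phagosome maturation, stood at 298, 292 and 288 CPM in the 3 KO samples, against 290, 299 and 295 CPM in the 3 WT samples (log2 difference -0.01, 95% interval -0.08 to 0.06, limma, BH-adjusted p = 0.94). The KO and WT samples overlapped for each of these genes. Rab35, which acts in fast recycling and at the phagocytic cup, stood at 92.1 ± 4.41 CPM in KO against 90.9 ± 2.49 in WT (log2 difference 0.02, 95% interval -0.08 to 0.12, limma, BH-adjusted p = 0.91). Rab4b, a Rab of fast recycling, stood at 28.8 ± 1.4 CPM in KO against 29.1 ± 0.29 in WT and Rab4a at 8.12 ± 0.784 CPM in KO against 9.11 ± 1.94 in WT. The log2 difference of Rab4a, -0.13, had the widest interval of the group, -0.46 to 0.19 (limma, BH-adjusted p = 0.767), with WT replicate 1 the lowest of all 6 samples.

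Secretory Rabs of the endoplasmic reticulum and Golgi did not pass the test in any of 10 cases. Rab1a, which carries vesicles from the endoplasmic reticulum to the Golgi, stood at 303, 302 and 262 CPM in the 3 KO samples, against 299, 316 and 289 CPM in the 3 WT samples. KO replicate 3 was the lowest sample and the groups overlapped (log2 difference -0.06, 95% interval -0.20 to 0.07, limma, BH-adjusted p = 0.729). Its paralog Rab1b stood at 154 ± 6.4 CPM in KO against 154 ± 3.64 in WT (log2 difference 0.00, 95% interval -0.09 to 0.09, limma, BH-adjusted p = 0.993). Rab2a, of the early Golgi, stood at 106 ± 3.33 CPM in KO against 106 ± 4.17 in WT, with a log2 difference of -0.01, and its paralog Rab2b at 16.6 ± 1.41 CPM in KO against 15.6 ± 1.82 in WT, with a log2 difference of 0.09 (limma, BH-adjusted p = 0.952 and 0.763). Rab6a, which acts within the Golgi, was the one gene of this role whose groups did not overlap, at 113 ± 1.72 CPM in KO against 115 ± 0.677 in WT (log2 difference -0.03, 95% interval -0.11 to 0.04, limma, BH-adjusted p = 0.741). It was named after its values were seen. Of all tested genes, 9.1% were lower in KO without overlap and 17.7% did not overlap in either direction. The exons of Rab6a share 19% of their length with Mrpl48 on the opposite strand, which stood at 27.6 CPM in KO against 25.6 in WT. Rab6b varied more between samples than between genotypes, at 15.9, 11.6 and 16.5 CPM in the 3 KO samples, against 12, 20.1 and 17 CPM in the 3 WT samples (log2 difference -0.14, 95% interval -0.56 to 0.28, limma, BH-adjusted p = 0.816). The remaining members of this role, Rab18, Rab19, Rab33b and Rab43, had log2 differences between -0.05 and 0.07. Rab43 shares 75.4% of its exon length with the gene model Gm45140 on the same strand, so its level of 85.9 ± 2.94 CPM in KO against 88.5 ± 2.12 in WT is uncertain.

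None of the 8 Rabs of transport to the plasma membrane and of secretory granules passed the test, and 3 of them (Rab3d, Rab3a and Rab44) had a positive difference. The 8 genes added up to 951 ± 3.63 CPM in KO against 999.6 ± 9.85 in WT. The ranges, 947 to 954 and 988 to 1006, did not overlap, the sum was not tested, and most of its difference was that of Rab8b, whose mean was 568 CPM in KO against 609 in WT. Rab8b, which carries vesicles to the cell surface, stood at 577, 562 and 564 CPM in the 3 KO samples, against 601, 612 and 614 CPM in the 3 WT samples. Every KO sample was below every WT sample (log2 difference -0.10, 95% interval -0.17 to -0.03, limma, BH-adjusted p = 0.208). Its paralog Rab8a stood at 92.7 ± 5.46 CPM in KO against 99.4 ± 4.68 in WT (log2 difference -0.10, 95% interval -0.22 to 0.02, limma, BH-adjusted p = 0.487), with overlapping groups and the same log2 difference. Rab10, which also serves the surface, stood at 212 ± 1.16 CPM in KO against 216 ± 8.57 in WT (log2 difference -0.03, 95% interval -0.11 to 0.05, limma, BH-adjusted p = 0.786), and its antisense partner Rab10os was listed at 15.5 CPM in KO against 16.7 in WT.

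None of the granule Rabs passed the test. Rab27a, which docks secretory lysosomes, stood at 8.05, 7.49 and 7.84 CPM in the 3 KO samples, against 9.16, 7.57 and 8.23 CPM in the 3 WT samples (log2 difference -0.08, 95% interval -0.27 to 0.11, limma, BH-adjusted p = 0.758). Rab3d, a granule Rab of secretory cells, stood at 56.1 ± 2.31 CPM in KO against 52.5 ± 2.44 in WT (log2 difference 0.10, 95% interval -0.02 to 0.21, limma, BH-adjusted p = 0.486), and Rab3a, its counterpart at synapses, at 3.18 ± 0.751 CPM in KO against 2.66 ± 0.189 in WT (log2 difference 0.18, 95% interval -0.13 to 0.49, limma, BH-adjusted p = 0.657). Without KO replicate 2, the highest sample, the log2 difference of Rab3a was 0.03. Rab44, a large atypical Rab, stood at 2.14, 0.811 and 1.23 CPM in the 3 KO samples, against 0.87, 0.775 and 1.01 CPM in the 3 WT samples. Its high value came from KO replicate 1 alone, it passed the filter with only 3 samples at 1 CPM or more, and its interval is wide (log2 difference 0.31, 95% interval -0.14 to 0.76, limma, BH-adjusted p = 0.565). Rab13, of tight junctions in epithelia, stood at 10.7 ± 0.436 CPM in KO against 10.8 ± 0.366 in WT.

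Of the 3 Rabs with other roles, none passed the test. Rab28, known from cilia, stood at 24.4, 24.1 and 24.9 CPM in the 3 KO samples, against 21.9, 22 and 23.4 CPM in the 3 WT samples. Its KO samples were all higher (log2 difference 0.12, 95% interval 0.00 to 0.24, limma, BH-adjusted p = 0.388). Rab40c, which joins a ubiquitin ligase, stood at 23.4 ± 1.04 CPM in KO against 24.9 ± 2.13 in WT (log2 difference -0.09, 95% interval -0.25 to 0.07, limma, BH-adjusted p = 0.674), and Rab23, an inhibitor of Hedgehog signalling, at 5.42 ± 1.15 CPM in KO against 5.95 ± 1.88 in WT (log2 difference -0.10, 95% interval -0.56 to 0.37, limma, BH-adjusted p = 0.894).

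The levels of Rab genes, set side by side per kb of annotated exon, ran from 0.225 to 238 CPM per kb. Rab7 had the highest level, 238 CPM per kb as the mean of the 6 samples, followed by Rab5c (151 CPM per kb), Rab8b (124) and Rab7b (100). No sample of 1 of these 4 genes overlapped the samples of the next. Rab1a (77.7 CPM per kb) and Rab31 (74.7) came next and overlapped between samples. The lowest were Rab39 (1.14 CPM per kb), Rab23 (0.687), Rab38 (0.472) and Rab44 (0.225), so the gene that differed past the test was among the least abundant Rabs. Division by the longest protein-coding transcript in place of all annotated exons, chosen after seeing the data, kept Rab7, Rab5c and Rab8b as the top 3. It moved Rab14 from rank 16 (21.6 CPM per kb) to rank 6 (95.3) and Rab5a from 17.1 to 38.1 CPM per kb, since in both the union of exons is longer than that transcript.

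**Figure D4:**
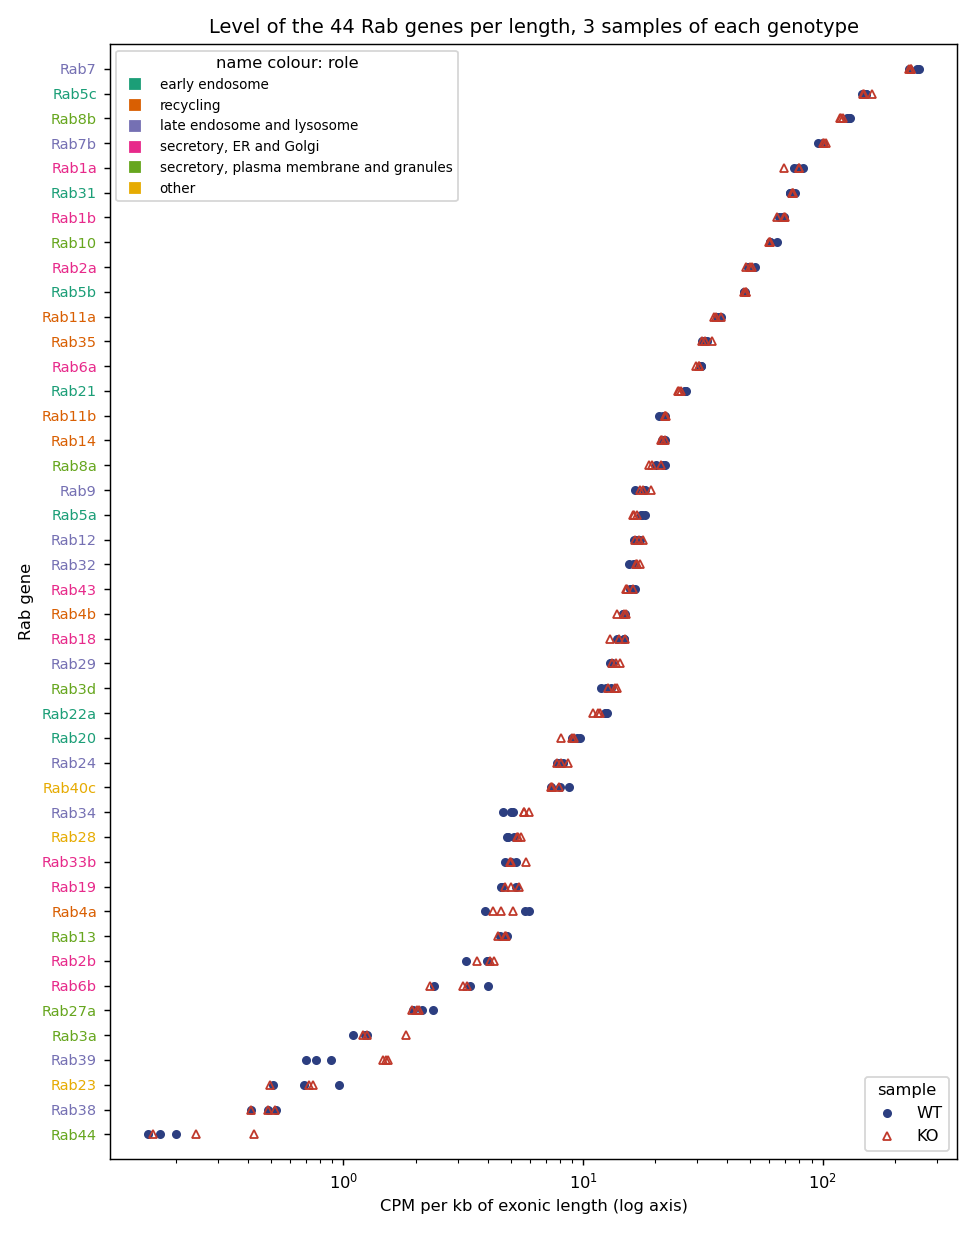
Level of the 44 Rab genes in CPM per kb of exonic length (x axis, log scale), 1 point per sample, with WT as filled circles and KO as open triangles; the colour of a name gives its role. Rab7 lies highest and Rab44 lowest, and the symbols of both genotypes lie on each other for most genes and apart for Rab39.

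Within subfamilies 1 paralog usually dominated, and the shares were nearly the same in both genotypes. Per length, Rab5c made up most of the Rab5 transcripts, 70.4 ± 0.9% in KO against 69.7 ± 0.456% in WT. Rab5b held 22 ± 0.713% in KO against 22 ± 0.387% in WT, and Rab5a held 7.61 ± 0.187% in KO against 8.28 ± 0.153% in WT. The share of Rab5a was lower in each KO sample than in any WT sample. Of the Rab8 pair, Rab8b made up 85.8 ± 0.864% in KO against 85.8 ± 0.66% in WT. Of the Rab4 pair, Rab4b made up 76 ± 1.02% in KO against 74.2 ± 4.22% in WT, and of the Rab11 pair Rab11a made up 62.2 ± 0.783% in KO against 63.3 ± 0.976% in WT. Rab1a and Rab1b were close to even, with Rab1a at 52.9 ± 2.63% in KO against 54 ± 1.47% in WT. Rab7 held 69.5 ± 0.341% in KO against 71.1 ± 0.561% in WT when set against Rab7b, and its KO shares, 69.3% to 69.9%, lay below the WT shares, 70.5% to 71.6%. These shares cover listed paralogs only and were not tested. The shares depend on the length used: with the longest transcript Rab5a held 13.6% in KO and 14.7% in WT, while the leading paralog of each subfamily remained the same.

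**Figure D5:**
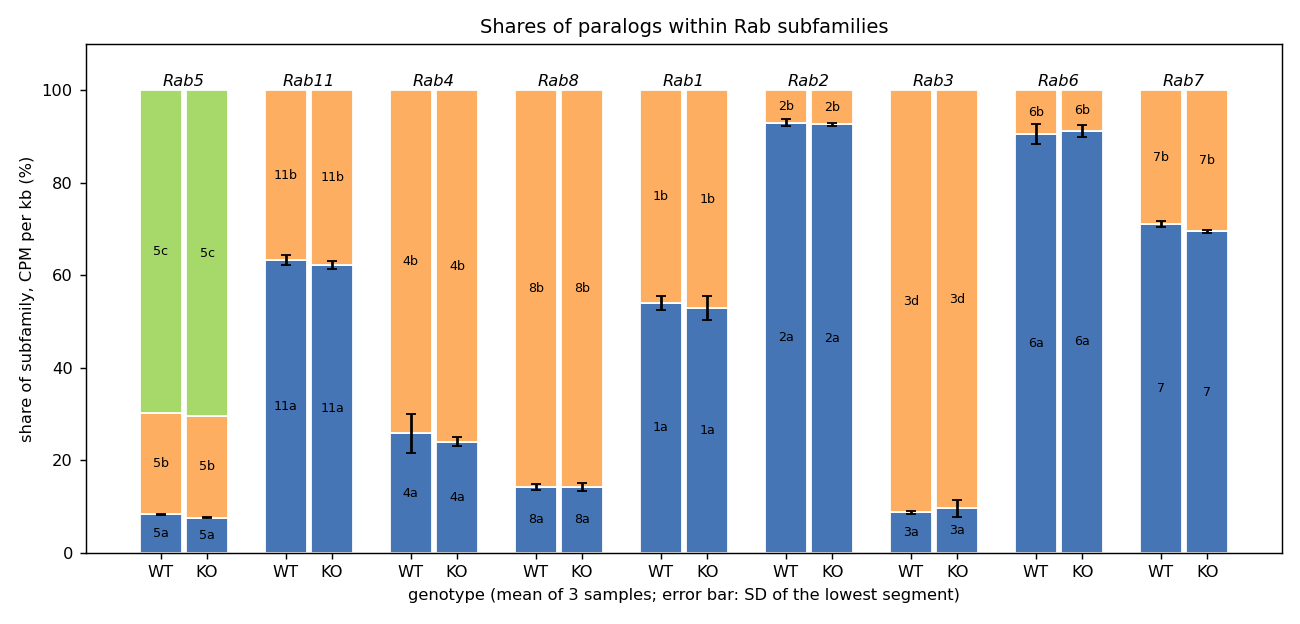
Share of each paralog in its Rab subfamily (y axis, percent of the subfamily's CPM per kb) in WT and KO, as the mean of 3 samples, with the SD of the lowest segment as error bar. Rab5c, Rab11a, Rab4b, Rab8b, Rab1a, Rab2a, Rab3d, Rab6a and Rab7 are the larger shares in both genotypes.

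Transcripts of the proteins that regulate Rabs or carry out their work also differed little: of 152 tested regulators and effectors, 1 was higher in KO and 0 were lower, against the background of 1.27% called. Their median log2 difference was -0.02. None of the 10 genes listed under GDI, escort and prenylation had an unadjusted p under 0.05, as 12.5% of all tested genes did. Some of their proteins keep Rabs soluble or attach their lipid anchor. The lowest p was that of Rabif, a Rab chaperone, at 23.5 ± 0.281 CPM in KO against 24.9 ± 1.18 in WT (log2 difference -0.07, limma, BH-adjusted p = 0.624), and of Rabggta, a subunit of the enzyme that prenylates Rabs, at 13.3 ± 0.323 CPM in KO against 14.5 ± 1.58 in WT (log2 difference -0.11, limma, BH-adjusted p = 0.624).

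None of the exchange factors and GAPs passed the test. Of 44 tested genes in the GEF list, which also holds related proteins such as Bloc1s3 and Dnajc27, 2 had an unadjusted p under 0.05. Trappc4, a subunit of the TRAPP complexes that activate Rab1 and Rab11, stood at 26.9 ± 1.43 CPM in KO against 30.1 ± 0.626 in WT (log2 difference -0.16, limma, BH-adjusted p = 0.263). Gapvd1, an exchange factor of Rab5, stood at 155 ± 8.46 CPM in KO against 168 ± 6.41 in WT (log2 difference -0.12, limma, BH-adjusted p = 0.364). Of 34 GAPs, 6 did, 3 higher and 3 lower in KO, and over all tested genes the share was 12.5%. Tbc1d14, which acts on recycling endosomes in autophagy, stood at 74.3 ± 2.11 CPM in KO against 67.6 ± 1.2 in WT (log2 difference 0.14, limma, BH-adjusted p = 0.198), and Sgsm3 at 11.1 ± 1.37 CPM in KO against 8.27 ± 1.2 in WT (log2 difference 0.38, limma, BH-adjusted p = 0.235). The 3 lower GAPs, named after their values were seen, were Tbc1d1, Tbc1d23 and Evi5, with log2 differences of -0.12, -0.11 and -0.15 (limma, BH-adjusted p = 0.279, 0.347 and 0.369). Tbc1d8 passed the test only without WT replicate 1 (log2 difference 0.31, limma, BH-adjusted p = 0.0354) and was chosen after its values were seen.

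None of the 26 effectors of early and recycling endosomes passed the test. Their median log2 difference was -0.02, with 12 above 0 and 14 below. The KO and WT samples of 5 did not overlap, all 5 lower in KO, where 9.1% of all tested genes were lower without overlap and 17.7% did not overlap in either direction. Micall1, which forms recycling tubules with Rab8a and Rab35, stood at 31.4, 31.5 and 32.6 CPM in the 3 KO samples, against 36.8, 36.5 and 36 CPM in the 3 WT samples (log2 difference -0.19, 95% interval -0.28 to -0.09, limma, BH-adjusted p = 0.106). Appl2, an effector of Rab5 and Rab31 on signalling endosomes, stood at 54.3 ± 2.01 CPM in KO against 60.6 ± 1.65 in WT (log2 difference -0.16, limma, BH-adjusted p = 0.189). Its relative Appl1 stood at 91.9 ± 5.39 CPM in KO against 102 ± 3.48 in WT (log2 difference -0.15, limma, BH-adjusted p = 0.249). Eea1, the tether that Rab5 recruits, stood at 206 ± 2.18 CPM in KO against 220 ± 3.95 in WT (log2 difference -0.10, limma, BH-adjusted p = 0.245). Appl1 and Eea1 were chosen after their values were seen.

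Of 23 late endosome and lysosome effectors none passed the test. Vps33a, a subunit of the HOPS tether that Rab7 recruits, stood at 111 ± 4.87 CPM in KO against 102 ± 2.78 in WT (log2 difference 0.12, limma, BH-adjusted p = 0.289), and its partner Vps16 at 33.3 ± 0.522 CPM in KO against 35.6 ± 1.26 in WT (log2 difference -0.09, limma, BH-adjusted p = 0.458). Of 15 secretory effectors 1 was called: Rims2, a Rab3 effector known from synapses, stood at 12.4, 12.1 and 11.9 CPM in the 3 KO samples, against 1.91, 1.74 and 2.16 CPM in the 3 WT samples (log2 difference 2.16, SE 0.0872, limma, BH-adjusted p = 5.14e-06). Genes beside Rims2 on its chromosome were not examined, unlike those beside Rab39. This 1 call is no result about secretory effectors as a set. Golga2, the Golgi tether that binds Rab1, stood at 68.1 ± 4.17 CPM in KO against 76.5 ± 1.5 in WT (log2 difference -0.17, limma, BH-adjusted p = 0.211).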

How the data were processed

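RNA from cultured macrophages was sequenced in 3 KO and 3 WT samples, grouped by the genotype in their titles. The authors deposited CPM, as the column names say, with a further scaling between libraries (column sums of 989223 to 1018258); the submitters' processing notes name GRCm39, while aligner, counter, strand setting and scaling are not given in the sources used here. Low values were not whole multiples of a step (24% to 43.6% lay within 0.1 of a step), so reads were not recovered and depth is unknown. No sample column was left unused (0); a lone deposited p-value beside Cd5l was not used.

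After a minimum of 1 CPM in 3 or more samples, values were fitted as log2(CPM + 1) with limma 3.58.1 in R 4.3.3 (mean-variance trend, two-sided, BH adjustment over 11556 genes, threshold 0.05, 95% intervals from the same fit). Fold changes on this scale understate those of low genes. Lengths, gene order and 3′ UTRs came from GENCODE M21 (GRCm38), and 44 of 44 Rab genes matched. Level per kb is CPM over the union of annotated exons; reads of near-identical paralogs may be split by the unknown counting.

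Members, role groups and lists were chosen with earlier results of these data known. Named were Rab genes past the test in any fit, the 2 most abundant per length and the 2 with the largest difference in each role, 8 fixed genes, and in each list the genes past the test or the 2 of lowest p, beside Rab genes under the filter and the host transcript. Other named genes were chosen after their values were seen. Alternatives were 3 other pseudocounts, no filter or a mean of at least 5 CPM, median-of-ratios factors, no trend, a replicate block and leaving out each sample.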

Additional observations from a re-analysis of the deposited data

How the results depend on the processing

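Rab39 was the single Rab gene called under pseudocounts of 0.1, 0.5 and 5, no filter, median-of-ratios factors, no trend and the replicate block. With a filter on a mean of at least 5 CPM the number of Rab genes called was 0 (6 had an unadjusted p under 0.05 by limma), because Rab39 was then not tested. Leaving out 1 sample gave 0 or 1 Rab genes (0 without KO replicate 1, WT replicate 2 or WT replicate 3, where 6, 5 and 6 had an unadjusted p under 0.05), 1 or 2 regulators and effectors, and 55 to 243 of all genes called (55 without WT replicate 3, 58 without WT replicate 2, 63 without KO replicate 1, 243 without WT replicate 1, 147 with all samples). For these unadjusted counts of Rab genes the share of all tested genes in the same fits was not taken, so they have no background beside them. In the main fit, 7 Rab genes and 12.5% of all tested genes had an unadjusted p under 0.05 (limma). Without the mean-variance trend 74 of all genes were called. The cause was not tested. The replicate block changed no Rab call: 142 genes in all and Rab39 (limma, BH-adjusted p = 0.0342) were called. Same-numbered KO and WT samples deviated together only weakly (correlations of 0.000154, 0.0834 and 0.0646, the highest for each KO sample being its own number in KO replicates 2 and 3 but not 1), so the numbers were not treated as pairs.

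Of 375 values of 27 named Rab genes under 14 alternatives, 357 kept their direction and side of the threshold, 3 lost the call (Rab39, given above) and 15 changed sign, all in fits without 1 sample and none larger than 0.104 in size. The log2 difference then ran from -0.0155 to 0.0534 for Rab5c, from -0.0196 to 0.046 for Rab35, from -0.0223 to 0.00207 for Rab14, from -0.1 to 0.00514 for Rab1a, from -0.0197 to 0.0359 for Rab1b, from -0.00401 to 0.157 for Rab2b, from -0.334 to 0.0174 for Rab6b, from -0.0479 to 0.00182 for Rab10 and from -0.287 to 0.104 for Rab23. No tested Rab gene changed direction under median-of-ratios factors, which moved the median of all genes by less than 0.01. Unknown depth limits what can be said of Rab39, Rab44, Rab38, Rab3a and Rab23, all low in CPM.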
